A study of Mus musculus with 4 samples.

Results

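The genes described here handle retinoids, the vitamin A derivatives, or encode the receptors that retinoic acid binds. The set was named by gene symbol, 8 genes in all: the enzymes Dhrs3, Rdh10 and Rdh11, the receptors Rara, Rarb, Rarg and Rxra, and the carrier Crabp2. Rows were found by exact gene name among the 36918 gene names on the array. Of the 8 genes, 7 had rows, with 16 probes in all, and no row carried the name Crabp2, which is not analysed here. The set was drawn up with measured values in view, because Dhrs3 stood much lower after halofuginone in one line than in the other. All comparisons of halofuginone with control for these genes are therefore descriptions.

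Expression was measured in pancreatic cancer cells of C57BL/6 mice, called K5 and K6 in the labels. Each line gave 1 sample exposed to 100 nM halofuginone for 24 hours and 1 control sample that received DMSO. Halofuginone inhibits prolyl-tRNA synthetase. What sets K5 apart from K6, how either line was derived, and whether the samples came from separate cultures are not given in the sources used here, so any p-value covers only the spread between these 4 samples.

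Cells take up vitamin A as retinol, which dehydrogenases oxidise reversibly to retinal and which retinaldehyde dehydrogenases then oxidise irreversibly to retinoic acid. Dhrs3 reduces retinal back to retinol and so acts against Rdh10, which makes retinal from retinol. Retinoic acid binds the receptors RARα, RARβ and RARγ, which sit on DNA as heterodimers with a retinoid X receptor such as RXRα and switch on genes that include Rarb, Dhrs3 and the retinoic acid hydroxylase Cyp26a1. In the pancreas, retinoic acid helps to pattern the embryonic organ, and in the adult organ the quiescent stellate cells store retinyl esters.

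RARs and RXRs recognise direct repeats of a short sequence, the half-site, and the best known retinoic acid response element lies in the promoter of Rarb. Promoter windows of RefSeq on GRCm38.p6, each running from 250 bases before to 50 bases after a start, were searched on both strands for the consensus half-site AGGTCA and for variants of it. The variants were AGTTCA together with GGTTCA, both found in the Rarb element, as well as GGGTCA. A DR5 was scored where 2 half-sites in the same orientation were separated by 5 bases. Only 32 of 32851 windows held a DR5 (0.0974%), and Rarb was the 1 gene of the set among them. The half-sites searched for include those of the Rarb element, so its hit was built into the search and is a description only. Its promoter is shown because its sequence holds the element that defines this pathway, and the promoter of Dhrs3 is shown beside it because Dhrs3 differed most between the lines. The windows are chr14:16575477-16575726 on the minus strand for Rarb and chr4:144892577-144892826 on the plus strand for Dhrs3, each written 5′ to 3′ up to the base before the start. Capitals mark the DR5, both half-sites and the spacer.
Rarb: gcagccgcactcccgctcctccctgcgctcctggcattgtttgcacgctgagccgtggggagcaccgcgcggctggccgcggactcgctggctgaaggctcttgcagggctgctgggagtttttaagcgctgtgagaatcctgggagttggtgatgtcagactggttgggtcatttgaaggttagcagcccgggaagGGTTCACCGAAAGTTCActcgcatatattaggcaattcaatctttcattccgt
Dhrs3: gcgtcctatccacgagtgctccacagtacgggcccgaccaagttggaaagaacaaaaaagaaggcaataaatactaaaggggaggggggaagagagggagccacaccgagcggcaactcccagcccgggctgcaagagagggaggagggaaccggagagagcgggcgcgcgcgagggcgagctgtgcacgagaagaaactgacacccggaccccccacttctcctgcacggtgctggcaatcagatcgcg

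The same repeat is compared below with that of Cyp26a1, the classical retinoic acid target that breaks retinoic acid down. Here capitals mark the 2 half-sites and lower case the spacer, each sequence being read on the strand of its own gene, so that the half-sites of Cyp26a1 appear as their reverse complements. The Rarb repeat lies at chr14:16575513-16575529, from 53 to 37 bases before the start. The Cyp26a1 repeat lies at chr19:37697776-37697792 on the plus strand, from 32 to 16 bases before the start.
Rarb DR5: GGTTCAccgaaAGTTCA
Cyp26a1 DR5: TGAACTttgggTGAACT
Of the 8 genes, 6 had windows, 14 in all, and Rdh10 and Crabp2 had none. A half-site on its own was present in 7 of these 14 windows, against 43.7% of all windows, and every DR5 contains half-sites by construction. Repeats of the same half-sites with a spacer of 2 bases (DR2, 0.268% of all windows) or 1 base (DR1, 0.222%) occurred in 0 genes of the set. The 3 windows of Dhrs3 held no half-site, which says only that these letters are not in these windows.

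Signals are given below as relative signal, the background-subtracted intensity of a probe divided by the 75th percentile of its array. A value of 1 is thus the brightness at that percentile. A probe's signal is not compared with that of another probe. Changes are log2 differences, halofuginone minus control, and each line has 1 array per condition, so a change within a line carries no test. Of the 16 probes, 10 were well above background on all 4 arrays, 3 on some arrays and 3 on none. Where a gene had several probes, the brightest stood for it, and all 7 genes passed the filter of a signal well above background on at least 2 arrays. Spots of 1 probe repeated on an array had a median SD of 0.033 to 0.047 on the log2 scale, which is technical error within an array only.

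Halofuginone arrays had 53.1% to 54.0% of their spots well above background, against 47.2% to 48.6% for control arrays. Of 9 epithelial and ductal marker genes, 9 were well above background on every array. Of 10 fibroblast and stellate cell markers only 1 to 3 were, with a summed relative signal of 0.178 to 0.439 after halofuginone and 0.318 to 0.45 in control. Lrat, the enzyme by which stellate cells store retinol, and the stellate marker Pdgfrb were well above background on no array. Of 7 immune markers, 5 were above background on every array, with sums of 9.46 to 11.2 after halofuginone and 12.5 to 12.6 in control, and the macrophage marker Adgre1 was on none. Of 4 endothelial markers, 3 were above background in halofuginone K6, 1 in control K6, 1 in halofuginone K5 and 0 in control K5. Of 5 acinar markers 1 or 2 were on each array, Cela1 on all 4, and of 4 endocrine markers at most 1 was. Among all these markers limma called the macrophage gene Cd68 and the acinar protease Cela1 lower after halofuginone (adjusted p = 0.044 and 0.037). It called the endothelial receptor Kdr higher (limma adjusted p = 0.037). Kdr was not well above background in control K5, where it read 0.0123. Of all tested genes, 5.08% were called lower and 3.88% higher. The part that other cells or the share of bright spots had in the values below was not tested.

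Dhrs3, the retinal reductase, was lower after halofuginone in both lines, and far lower in K6 than in K5. Its brightest probe, on mm9 at chr4:144517485-144517544, had a relative signal of 0.16 in halofuginone K6, against 18.8 in control K6. In K5 the same probe had a relative signal of 4.28 with halofuginone, against 13.9 in control. The halofuginone K6 array was the low one, the halofuginone K5 array lay between, and the 2 control arrays were close to each other. The log2 change was -6.88 in K6, where control was 118-fold above halofuginone. In K5 the log2 change was -1.70, where control was 3.24-fold above halofuginone.

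Seen from the lines rather than the treatment, K6 and K5 differed little in Dhrs3 under DMSO and widely under halofuginone. The control signal in K6 was 1.36-fold that in K5, whereas under halofuginone the signal in K5 was 26.8-fold that in K6. The change in K6 minus the change in K5 was -5.19 on the log2 scale, the 34th lowest of the 19093 tested genes. Across those genes the absolute difference between the lines had a median of 0.45 and a 99th percentile of 3.78. These values helped to choose the gene, and with 1 array per line and condition the difference could not be tested.

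A second Dhrs3 probe, at chr4:144483279-144483338, was much dimmer and moved in the same direction. It read 0.0354 in halofuginone K6, which was not well above background, against 0.54 in control K6, so that it was at least 15.2-fold lower with halofuginone. The bound uses the probe's own signal on that array, which lay above the lowest signal counted as detected there, 0.031. In K5 the second probe read 0.142 with halofuginone and 0.354 in control, a log2 change of -1.32. Both probes thus had the larger decrease in K6.

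**Figure D1:**
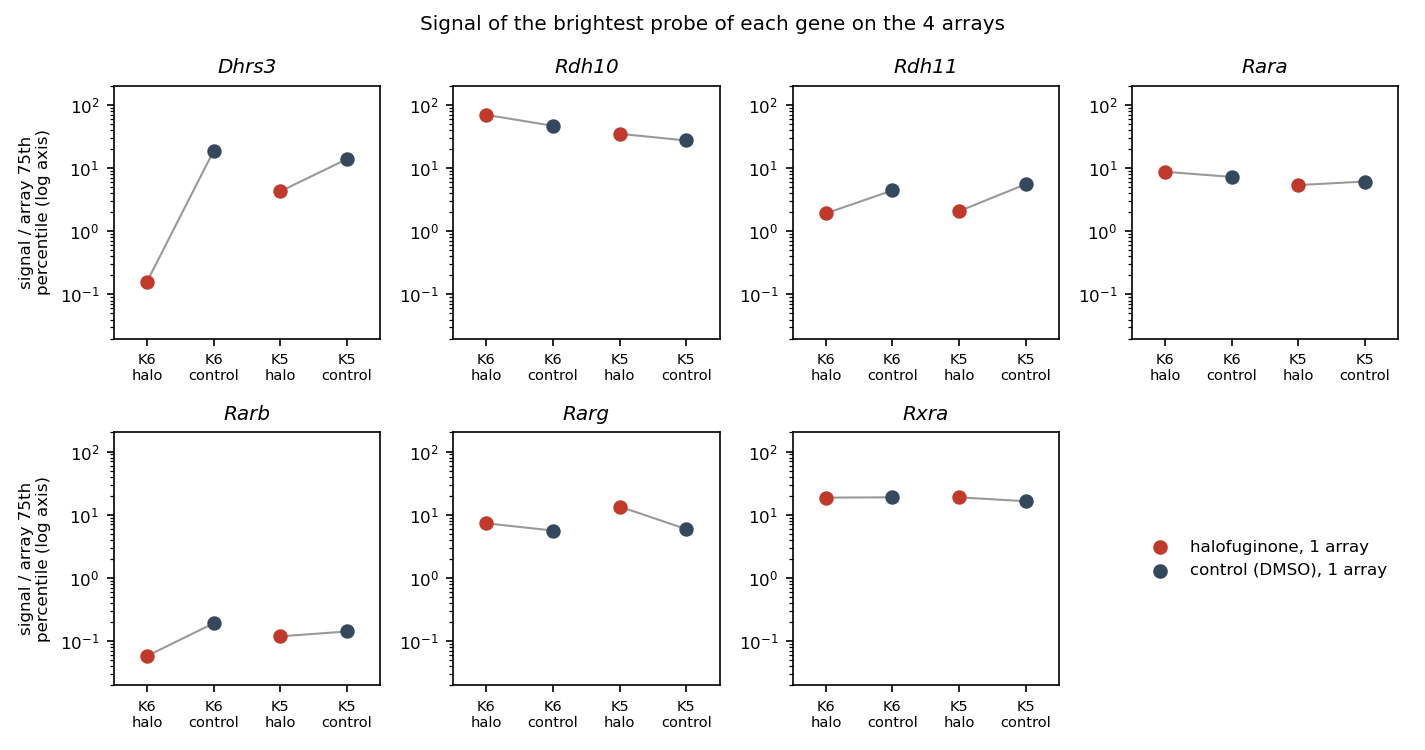
Relative signal (log scale) of the brightest probe of each of the 7 genes on the 4 arrays, 1 panel per gene, with halofuginone (halo) left of control in each line and 1 point per array. Dhrs3 has its lowest point, 0.16, in halofuginone K6, and Rxra is nearly level across the arrays.

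Rdh10, which carries out the first oxidation of retinol to retinal, had a bright signal that read somewhat higher after halofuginone in both lines. Its 1 probe, at chr1:16122506-16122565, had a relative signal of 69.7 in halofuginone K6 and 46.8 in control K6. In K5 the relative signal was 35 with halofuginone and 27.4 in control. Both K6 arrays lay above both K5 arrays. The halofuginone log2 change was 0.57 in K6 and 0.35 in K5, and over both lines it did not pass the test (limma adjusted p = 0.288). Between the lines the log2 difference, K6 minus K5, was 0.88 with an SE of 0.261 and did not pass the test (limma adjusted p = 0.265, 4 arrays). K6 was 1.99-fold above K5 with halofuginone and 1.71-fold above it in control.

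Rdh11, a microsomal enzyme of the same family that reduces retinal, was lower after halofuginone by a similar amount in both lines. The relative signal at chr12:80276608-80276667 was 1.92 in halofuginone K6, against 4.44 in control K6. In K5 it was 2.08 with halofuginone, against 5.56 in control. Neither halofuginone array overlapped the control arrays, and the 2 lines were close to each other within each condition. Control was 2.31-fold above halofuginone in K6 and 2.67-fold above it in K5. The mean log2 change was -1.31 ± 0.148 (SD, n = 2 lines), the smallest SD among the 7 genes, and the fit over both lines left Rdh11 just outside the threshold of 0.05 (limma adjusted p = 0.0589).

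A dimmer probe for Rdh11 gave nearly the same changes. It read 0.132 in halofuginone K6 against 0.301 in control K6, and 0.132 in halofuginone K5 against 0.329 in control K5. Its log2 changes were -1.18 in K6 and -1.32 in K5. Dhrs3 and Rdh11, the reductases of the set, were thus both lower after halofuginone at every probe, but only Dhrs3 differed much between the lines.

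**Figure D2:**
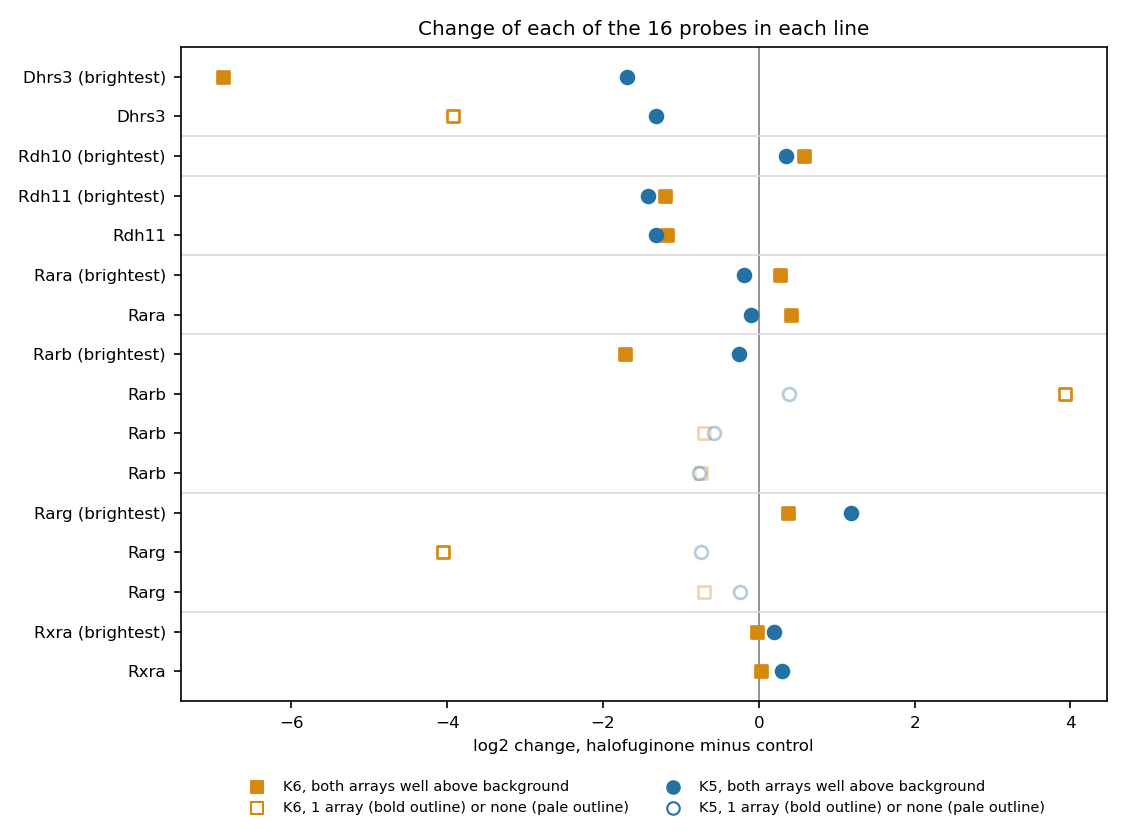
Log2 change after halofuginone (horizontal axis, halofuginone minus control) for each of the 16 probes, with squares for K6 and circles for K5. Filled symbols had both arrays of the line well above background, bold outlines 1 array and pale outlines none, and the 2 Dhrs3 probes have the widest gap between lines among probes detected on at least 3 arrays.

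Rara, the receptor found in most tissues, differed little between conditions. Its brightest probe, at chr11:98836197-98836256, read 8.74 in halofuginone K6 against 7.26 in control K6, and 5.39 in halofuginone K5 against 6.14 in control K5. The log2 change was 0.27 in K6 and -0.19 in K5. A second Rara probe, at chr11:98835350-98835409, read 2.86 in halofuginone K6 against 2.14 in control K6, and 2.74 in halofuginone K5 against 2.95 in control K5. Both probes had a positive value in K6 and a negative one in K5, and the 4 log2 changes lay between -0.19 and 0.42.

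Rxra, the common partner of the RARs and of several other nuclear receptors, had the steadiest signal. At chr2:27618345-27618404 the relative signal was 18.6 in halofuginone K6 against 18.8 in control K6, and 18.8 in halofuginone K5 against 16.3 in control K5. The 4 arrays thus lay within a narrow band, with a log2 change of -0.02 in K6 and 0.20 in K5. A dim second probe, at chr2:27615316-27615375, gave log2 changes of 0.03 in K6 and 0.30 in K5.

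Rarg, the receptor characteristic of skin and other epithelia, was higher after halofuginone, more so in K5. Its brightest probe, at chr15:102065371-102065430, read 7.28 in halofuginone K6 against 5.59 in control K6, and 13.4 in halofuginone K5 against 5.9 in control K5. The halofuginone K5 array stood apart from the other arrays, which lay close together. Halofuginone was 1.3-fold above control in K6 and 2.27-fold above it in K5. The mean log2 change over the lines was 0.78 ± 0.565 (SD, n = 2 lines; limma adjusted p = 0.184). A second Rarg probe, 7021 bases away and tied to no RefSeq transcript in the array design, was well above background only in control K6, where it read 0.132. It was at least 4.25-fold lower in halofuginone K6, so the gene's probes disagreed there. The remaining probe was well above background on no array.

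Rarb, itself a retinoic acid target through the repeat printed above, was dim. Its brightest probe, at chr14:17263511-17263570 on mm9, read 0.0578 in halofuginone K6 against 0.19 in control K6, and 0.118 in halofuginone K5 against 0.141 in control K5. Control was 3.29-fold above halofuginone in K6, while the K5 arrays were close, with a log2 change of -1.72 in K6 and -0.26 in K5. With normexp background correction the K6 value was smaller, at -1.02. The halofuginone K6 array was the lowest, as it was for Dhrs3, but the gap between the lines was smaller for Rarb, at -1.46 on the log2 scale.

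A second Rarb probe gave the opposite picture in K6. It lies at chr14:17651424-17651483, 387913 bases from the brightest probe between their starts, and the array design ties it to 2 of the 4 RefSeq transcripts listed for the brightest one. It was well above background on the halofuginone K6 array alone, where it read 0.169, against 0.0111 in control K6, 0.0185 in halofuginone K5 and 0.0142 in control K5. This made it at least 3.22-fold higher with halofuginone than in control in K6, and at least 5.13-fold higher in K6 than in K5 under halofuginone. In K6 the probes listed for Rarb thus moved in opposite directions, and no single direction holds for the gene. The other 2 Rarb probes were well above background on no array.

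In the fit over both lines, 0 of 7 were past the threshold for halofuginone, against 8.96% of all tested genes (3.88% higher and 5.08% lower). At an unadjusted p under 0.05, limma gave 2 of the 7, Rdh11 and Dhrs3, against 34.1% of all tested genes. The median log2 change of the 7 genes was 0.04, and that of all tested genes was 0.01. Between the lines 0 of 7 passed, against 0.173% of all tested genes, with limma adjusted p-values from 0.265 to 0.884. At an unadjusted p under 0.05, 1 of 7 did, Rdh10, against 15.5% of all tested genes. With values ranging as widely between the lines as those of Dhrs3, the paired fit has a large residual, and its log2 change was -4.29 ± 3.67 (SD, n = 2 lines; limma adjusted p = 0.116).

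Counted within lines at a size of at least 2-fold, Dhrs3, Rarb and Rdh11 were lower in K6, 3 of 7, against 16.4% of all tested genes. In K5 Dhrs3 and Rdh11 were lower, 2 of 7, against 14.9% of all tested genes. Rarg was the 1 gene of 7 that was at least 2-fold higher in K5 (14.1% of all tested genes), and 0 of 7 were in K6 (16.4%). The set's choice used these contrasts, so nothing is read from these shares. Just inside the size of 2-fold lay Rarg in K5, with a log2 change of 1.18, and Rdh11 in K6, with -1.21, and nearest outside it lay Rdh10 in K6, with 0.57.

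**Figure D3:**
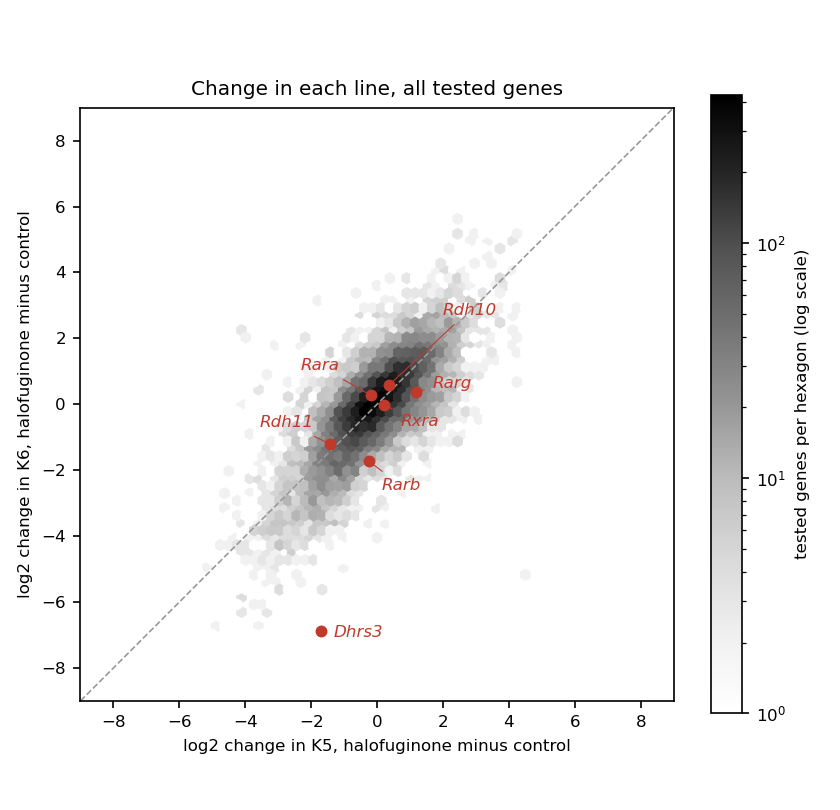
Log2 change after halofuginone in K6 (vertical axis) against that in K5 (horizontal axis) for all 19093 tested genes, shaded by the number of genes per hexagon on a log scale, with the 7 genes as red points and a dashed line of equal change. Dhrs3 lies far below the line at -6.88 in K6 and -1.70 in K5, and Rdh11 lies near it.

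The genes whose pattern was most like that of Dhrs3 were found by Euclidean distance between log2 values centred on each gene's mean, over 4 arrays, and the 5 nearest are named as a description. They were Ttc30b (distance 0.731), Vcam1 (0.852), Cenpm (0.98), Dio3os (1.15) and Aqp1 (1.18). Vcam1, an adhesion molecule that binds leukocyte integrins, was the 1 of these well above background on all 4 arrays. It read 0.13 in halofuginone K6 against 13.9 in control K6, and 2.18 in halofuginone K5 against 16.2 in control K5. Ttc30b acts in cilium assembly, Cenpm is a centromere protein and Aqp1 is a water channel. As read, the log2 changes of these 4 genes other than Vcam1 lay between -6.94 and -5.67 in K6 and between -3.29 and -1.56 in K5. None of the 4 was well above background in halofuginone K6, so their K6 changes and their distances rest on undetected readings.

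**Figure D4:**
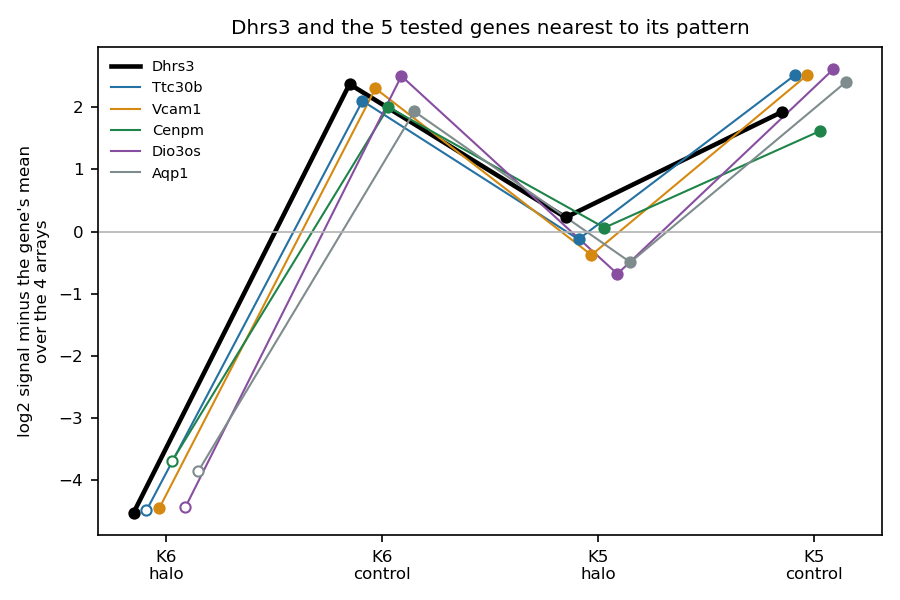
Log2 signal minus the gene's mean over the 4 arrays (vertical axis) for Dhrs3 and its 5 nearest genes by Euclidean distance on the 4 arrays, with open points for signals not well above background. All 6 genes are lowest at halofuginone K6, where Dhrs3 is at -4.52, and Dhrs3 is at 0.23 in halofuginone K5.

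The steps around these enzymes and receptors were followed in 81 further genes, listed by textbook role. Of these, 57 passed the filter, and 1 rose, 4 fell and 52 did not pass the test for halofuginone over both lines, so that 8.77% were past the threshold, close to the 8.96% of all tested genes. Between the lines, limma called 0 of the 57. The 4 calls described below ended when the lines were not paired, when no filter on dim probes was used and when dim values were raised to a common floor (limma adjusted p up to 0.127).

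Of the measured genes of retinol uptake and binding, 6 are described here, and none of these 6 passed the limma test. Rbp4, the carrier of retinol in blood, read 36.4 in halofuginone K6 against 121 in control K6, and 83.7 in halofuginone K5 against 214 in control K5. Its groups did not overlap, but its log2 change of -1.54 (SE 0.272) did not pass (limma adjusted p = 0.052). Stra6, the membrane receptor that takes up retinol from Rbp4, had a log2 change of 0.88 (SE 0.263, limma adjusted p = 0.11), with 1.94 in halofuginone K6 against 0.967 in control K6 and 0.62 in halofuginone K5 against 0.369 in control K5.

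The other genes of uptake and binding described here did not pass either. The intestinal retinol carrier Rbp2 had a log2 change of 1.06 over both lines, with 1.78 in K6 and 0.34 in K5. Its relative signals were dim, from 0.0619 to 0.212. The lipoprotein receptor Scarb1, which also takes up carotenoids, had a log2 change of -0.78. Fabp5, which can carry retinoic acid to the receptor PPARδ, had a halofuginone log2 change of -0.49. The larger contrast for Fabp5 was between the lines, K6 minus K5 being -2.50 (SE 0.268, limma adjusted p = 0.069). Dgat1, which can esterify retinol, had a log2 change of -0.51 in K6 and 0.27 in K5. Crabp1, the paralogue of Crabp2, and Lrat were well above background on no array.

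Of 13 measured dehydrogenases and reductases that act between retinol and retinal, 1 rose, 0 fell and 12 did not pass, with median log2 changes of -0.07 in each line, against 0.04 in K6 and -0.03 in K5 for all tested genes. The gene that rose was Dhrs9, an oxidoreductase able to oxidise retinol. It read 0.355 in halofuginone K6 against 0.039 in control K6, and 0.238 in halofuginone K5 against 0.0612 in control K5. Neither control array was well above background, so the gene entered the test through its halofuginone arrays alone and had to differ; its call is a description and supports nothing further. Dhrs9 was at least 5.12-fold higher with halofuginone, with limma adjusted p = 0.047 on the values as read and 0.111 with the common floor. With normexp its log2 change was 1.41, against 2.57 in the values as read. A second Dhrs9 probe read higher too, with log2 changes of 4.11 in K6 and 3.09 in K5.

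Of 5 measured genes listed under retinoic acid synthesis and breakdown, a list that includes carotenoid cleavage, 2 fell, 0 rose and 3 did not pass. The median log2 changes were -1.20 in K6 and -0.24 in K5. Of all tested genes 5.08% were called lower. Aldh1a1, a retinaldehyde dehydrogenase, read 0.0967 in halofuginone K6 against 1.89 in control K6, and 0.113 in halofuginone K5 against 1.21 in control K5. It fell by 3.86 on the log2 scale (limma adjusted p = 0.036, SE of the limma fit 0.335), and both lines moved alike. Bco2, which cleaves carotenoids at an eccentric bond, was not well above background on either halofuginone array. It entered the test through its control arrays alone and had to differ, so its call too is a description only. It read 0.0115 in halofuginone K6 against 0.11 in control K6, and 0.0235 in halofuginone K5 against 0.165 in control K5. Bco2 was at least 4.21-fold lower with halofuginone on the processed signal, with limma adjusted p = 0.036 on the values as read and 0.118 with the common floor. Its log2 change of -3.04 as read became -1.28 with the common floor and -1.11 with normexp, so its size rests on readings near background.

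Aldh1a3, the other retinaldehyde dehydrogenase with a clear signal, pointed the other way from Aldh1a1 without passing the test. It read 2.89 in halofuginone K6 against 0.414 in control K6, and 8.64 in halofuginone K5 against 5.12 in control K5. The control K6 array was the low one, and the log2 changes were 2.80 in K6 and 0.75 in K5 (limma adjusted p = 0.12 over both lines). A second Aldh1a3 probe, not well above background in control K6, had closer log2 changes, 1.77 in K6 and 1.22 in K5. Aldh1a2 was well above background in K6 alone and had a log2 change of -1.20 there. Cyp26b1, a hydroxylase that clears retinoic acid, read 0.168 in halofuginone K6 against 0.381 in control K6, and 0.191 in halofuginone K5 against 0.181 in control K5. Its log2 change was -1.18 in K6 and 0.08 in K5, with K6 alone reading lower. Cyp26a1, whose repeat is printed above, and Cyp26c1 were well above background on no array, so their levels could not be compared.

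Of 14 measured RXR genes and partner receptors, 1 fell, 0 rose and 13 did not pass, with median log2 changes of -0.18 in K6 and -0.80 in K5. Nr1i2, which encodes the xenobiotic receptor PXR, read 0.0165 in halofuginone K6, not well above background, against 0.145 in control K6, and 0.0444 in halofuginone K5 against 0.363 in control K5. It fell by 3.08 on the log2 scale (limma adjusted p = 0.036, SE of the limma fit 0.256) on the values as read. Only 1 of the 2 halofuginone arrays was well above background. The change was -2.05 with the common floor, where it did not pass (limma adjusted p = 0.127), and -1.55 with normexp. Of 11 measured coregulators of these receptors, 0 passed, with median log2 changes of 0.20 in K6 and 0.46 in K5. Limma called 0 of 7 measured retinoic acid response genes, whose medians were 0.01 in K6 and 0.04 in K5, and 10 of the 17 listed did not pass the filter. Those that passed include Lamb1, a laminin chain induced by retinoic acid in embryonal carcinoma cells (log2 change 1.29, adjusted p = 0.059), and Tgm2, a transglutaminase (-0.93, adjusted p = 0.10), both named after their values were seen.

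**Figure D5:**
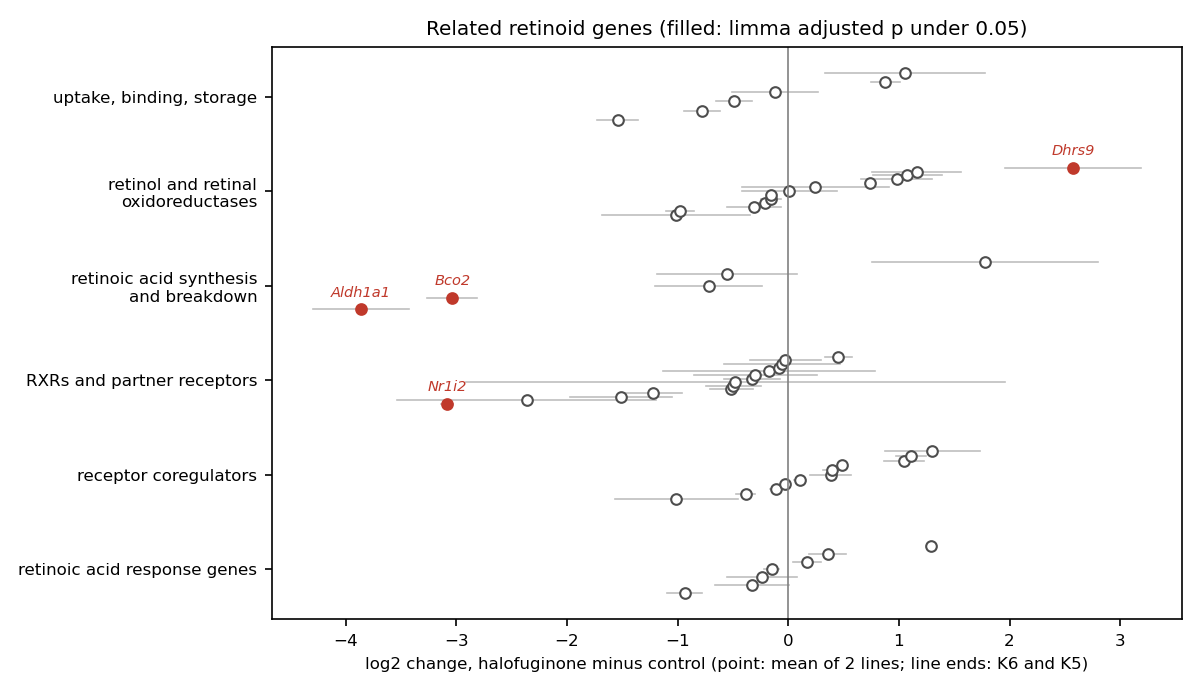
Log2 change after halofuginone (horizontal axis) for the measured related genes described here, grouped by role, with a point at the mean of the 2 lines, a horizontal line that ends at the K6 and K5 values, and filled points for genes past the threshold. Aldh1a1, Bco2 and Nr1i2 lie to the left of 0 and Dhrs9 to the right, and the other 52 points are open.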

How the data were processed

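Per the labels' protocols, cRNA was made from total RNA, labelled with Cy3 and read on Agilent arrays of 1 colour. The deposited intensity is the processed signal of each spot, background-subtracted by Agilent Feature Extraction 10.7.1.1 per the file headers, whereas the submitters' processing notes name 9.5.1.1. This spot signal is not normalized between arrays. All 4 arrays lay on 1 slide. The authors' deposited table of intensity values per probe, which is normalized between arrays, served as an alternative. Its values lay close to those of quantile normalization, with Dhrs3 in K6 at -6.96 and -6.97.

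Control and outlier spots were left out, which removed 301 of 56605 probes, spots of a probe were averaged as log2, and log2 of the array's 75th percentile over its 59305 non-control spots was subtracted. No spot was saturated. Each gene name was read by its probe with the highest mean. Of 36918 gene names, the 19093 detected well above background by that probe on 2 or more arrays entered limma 3.58.1 in R 4.3.3 (lmFit, eBayes), with treatment and line as terms. The line pairs the samples, a shared number 5 or 6 in the titles being read as the same line. The K6 minus K5 differences in the 2 conditions correlated at r = 0.498 across genes. The fit has 1 residual and 2.97 prior degrees of freedom. Benjamini-Hochberg adjustment ran over every tested gene, with a threshold of 0.05. A permutation test of 2 samples against 2 cannot go below p = 0.333 and was not used.

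For a group in which a probe was not detected well above background, folds are bounds, set by the lowest signal well above background on those arrays or the probe's own signal, whichever was higher. Probe coordinates are those of the files, on mm9, and promoter coordinates are those of RefSeq on GRCm38.p6; the builds were not mixed. The members and gene lists were chosen with earlier results of these data known. Genes named are all members, the measured genes of the lists of uptake and of retinoic acid synthesis and breakdown, the genes past the threshold in the other lists (up to 5 in each direction), and the 5 nearest to Dhrs3 in pattern. Some genes of the lists and markers are counted in totals but not reported here. Genes named outside this rule are marked as such or are markers. Alternatives were background correction, normalization, the value table, averaging of probes, a floor, the filter, a variance trend and the pairing. The number of arrays limits the precision.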

Additional observations from a re-analysis of the deposited data

Results flagged for a closer look

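The 2 lines pointed in opposite directions after halofuginone in 6 of the genes named here, and in further related genes that are not named. Of all tested genes, 76.7% had the same sign in both lines and the rest did not, so nothing is read from this count. Each line had a single array per condition, so the difference between the lines was not tested. Among the receptors, Rara had a log2 change of 0.27 in K6 and -0.19 in K5, and Rxra one of -0.02 in K6 and 0.20 in K5, though with median centring the K6 value of Rxra was 0.01. Both are small beside the differences of the related genes. Vdr, the vitamin D receptor and a partner of Rxra, had 1.95 in K6 and -2.91 in K5. Its probe was well above background only in halofuginone K6 (0.229) and control K5 (0.0881). Nr1h4, the bile acid receptor, had 0.79 in K6 and -1.13 in K5, but a second probe read -0.07 in K6 and -1.05 in K5. Both Vdr and Nr1h4 were named after their values were seen. Dgat1 had -0.51 in K6 and 0.27 in K5. Cyp26b1 had -1.18 in K6 and 0.08 in K5.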

How the results depend on the processing

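Under background correction, normalization, source of values, probe averaging and floor alternatives, the log2 change of Dhrs3 lay between -6.97 and -5.41 in K6 and between -1.78 and -1.51 in K5, and that of Rdh11 between -1.32 and -1.18 in K6 and between -1.50 and -1.37 in K5. Normexp background correction gave Dhrs3 -6.26 in K6 and a K6 minus K5 difference of -4.58, and the mean over probes gave -5.41 and -3.90. Normexp also gave Rarb -1.02 in K6 and Aldh1a1 -3.14 over both lines. The mean over probes turned Rarb in K6 to 0.19 and put Rarg at -1.46 in K6 and 0.07 in K5, since probes of these genes disagree. For Rxra in K6 the values lay between -0.25 and 0.01, above 0 with median centring and with the mean over probes. Median centring shifted the median change of all genes in K5 to -0.11.

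For halofuginone, genes called higher and lower numbered 740 and 970. They were 2605 and 2867 with normexp, 224 and 368 with the mean over probes, 1909 and 2103 with the filter on all 4 arrays, and 2039 and 2161 with an intensity trend. Limma called 0 and 0 with the common floor (5859 at an unadjusted p under 0.05), without a filter (15052) and without the replicate block (4492). Related genes called higher and lower numbered 9 and 12 of 57 with normexp, and 8 and 7 of 49 with the filter on all 4 arrays. They were 5 and 10 of 57 with the trend, and 0 and 0 with the common floor, without a filter and without the block. Dhrs3 and Rdh11, 2 of the 7 genes, were called with normexp, the filter on all 4 arrays and the trend (limma adjusted p from 0.00102 to 0.0478). Elsewhere 0 of the 7 were. Of all tested genes, 28.7% were called with normexp, 25.2% with that filter and 22% with the trend, so nothing is read from these counts. The cause was not tested.

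For K6 minus K5 the count of 33 became 1325 with normexp, 149 with quantile normalization, 298 with median centring, 152 with the authors' values, 305 with the filter on all 4 arrays and 293 with the trend. It was 0 when probes were averaged (2728 with unadjusted p under 0.05), with the common floor (2500), with no filter (3655) and with no replicate block (798). The cause was not tested. Leaving out K5 or K6 leaves the change in the other line, a value with no test.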
